A study of Mus musculus with 24 samples.

Results

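The glucocorticoid-responsive target genes described here are *Fkbp5*, *Tsc22d3*, *Sgk1*, *Zbtb16*, *Ddit4*, *Cebpb*, *Cebpd*, *Errfi1*, *Pdk4* and *Angptl4*, 10 of the 27958 genes tested on the arrays. They were chosen by name, each was read by the 1 probe whose accession maps to it, and all 10 probes stood well above background on all 24 arrays. The kidneys came from age-matched male mice, called young adult in the labels and only a few weeks old by the study's methods. Of the kidneys 6 were mgb+/+ controls and 18 were from mice homozygous for the megabladder mutation (mgb-/-), which leaves the bladder without its normal smooth muscle so that the kidneys become hydronephrotic. Ultrasound had graded the mgb-/- kidneys by how much parenchyma was preserved, as mild in 7, moderate in 5 and severe in 6. Whole-kidney RNA was labelled in 1 colour and each kidney had its own array, and the labels name no treatment of the mice. A value is the log2 of the deposited signal minus that of the array's 75th percentile, so 0 is that percentile and 1 unit is a 2-fold step. No level is set against that of another gene, because each probe binds with its own strength.

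Corticosterone, the main glucocorticoid of mice, circulates mostly bound to the globulin encoded by *Serpina6*, and the free hormone binds the glucocorticoid receptor inside the cell. The loaded receptor moves to the nucleus and binds DNA elements near its target genes. In the kidney these targets take part in sodium transport, fuel use, growth control and the restraint of inflammation. Many of them also answer to other signals, among them fasting, hypoxia, cytokines and growth factors, so their transcripts are no direct reading of the hormone.

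The promoters are shown first because, of the members searched, the classical receptor element was found in that of only 1. Windows of 300 bases, 250 before and 50 after each annotated start, came from RefSeq (GRCm38.p6). They were held for 7 of the 10 genes, with 15 starts among them, and not for *Zbtb16*, *Cebpd* and *Angptl4*. The element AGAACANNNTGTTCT, which is the arm AGAACA, any 3 bases and the reverse complement of the arm, was searched on both strands. It was found in 1 of the 15 windows, at 1 of the 6 starts of *Sgk1*, and in 3 of all 32851 windows (0.00913%). The match covers positions -189 to -175 from that start. The looser form GNACANNNTGTNC matched the same place and 0.475% of all windows, and the arm by itself was in 4 of the 15 windows and in 19.0% of all. A further arm of this window lies at -242 to -237. The window of 1 start of *Tsc22d3* held the arm at -185 to -180. A window of *Errfi1* held the palindromic cAMP element TGACGTCA at -51 to -44, present in 1.79% of all windows, and TATAAA at -28 to -23, present in 13.6%. The DR1 element was in none of the 15 windows and in 0.0396% of all. The bases before the start are printed 5′ to 3′ with these matches in capitals.
Sgk1, chr10:21993640-21993889, plus strand: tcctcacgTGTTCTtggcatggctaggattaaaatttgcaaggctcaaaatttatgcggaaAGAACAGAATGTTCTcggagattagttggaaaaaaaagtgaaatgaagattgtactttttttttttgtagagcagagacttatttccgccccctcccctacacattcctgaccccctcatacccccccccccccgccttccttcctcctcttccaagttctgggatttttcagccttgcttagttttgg
Tsc22d3, chrX:140600523-140600772, minus strand: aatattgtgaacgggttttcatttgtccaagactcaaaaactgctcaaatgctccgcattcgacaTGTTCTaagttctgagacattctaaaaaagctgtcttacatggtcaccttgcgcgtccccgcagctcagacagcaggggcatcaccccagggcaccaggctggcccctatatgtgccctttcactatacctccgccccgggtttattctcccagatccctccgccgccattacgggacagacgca
Errfi1, chr4:150854950-150855069, plus strand: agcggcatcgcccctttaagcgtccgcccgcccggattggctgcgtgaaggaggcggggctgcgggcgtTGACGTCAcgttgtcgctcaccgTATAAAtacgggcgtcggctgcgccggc
A match is a run of letters and not a shown binding site, and the arrays do not tell which start a transcript came from. Sequence outside these windows was not searched, so a window without a match does not show that the gene lacks the element.

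Every slide, of 3 in all, carried the arrays of 6 mgb-/- and 2 control kidneys. Between 55.1% and 70.7% of probes on an array stood well above background, no spot was saturated, and precision is limited by how many arrays there were. The severe 4 array had the lowest share above background and the most outlier spots, 660. Each kidney was given a summed level for every marker list, on the linear scale where 1 is the 75th percentile. It is the sum of the listed markers that had a value on every array, dim ones included. The sums and the tests therefore do not hold quite the same genes. *Dcn*, *Col1a1* and the leukocyte marker *Csf1r* were tested but are not in the sums. Markers of proximal tubule, thick limb, collecting duct, podocyte and endothelium were measured in every group, as whole kidney requires. Proximal tubule markers summed to between 923.2 and 1105 in control and 746.7 and 942.2 in mild kidneys. In moderate kidneys the range was 642.7 to 1229 and in severe kidneys 261.4 to 1005. Of these markers 0 of 8 passed in mgb-/- against control kidneys, and 1 passed as lower in severe against control kidneys. In mgb-/- kidneys 1 of 7 thick limb and distal tubule and 1 of 6 collecting duct markers passed as higher. Adrenal markers summed to 225.5 in mild 4 and 225.9 in moderate 1, against 0.7302 to 1.126 in controls and at most 5.614 in the other mgb-/- kidneys. Urothelial markers summed to between 73.3 and 245.9 in severe kidneys and to between 6.526 and 19.41 in controls, and 8 of 8 passed in severe against control kidneys. Adipocyte markers ran from 15.04 to 328 over mgb-/- and from 31.83 to 99 over control kidneys, with 0 of 7 passing in mgb-/- against control kidneys. Leukocyte markers ran from 4.291 to 60.24 and from 8.733 to 20.21, with 0 of 8 passing. Fibroblast and smooth muscle markers ran from 12.15 to 107.9 over mgb-/- and from 18.42 to 28.63 over control kidneys, and 2 of 8 passed as higher in mgb-/- kidneys, *Acta2* (1.20, adjusted p = 0.0227, limma) and *Dcn* (0.66, adjusted p = 0.0444, limma), with 8 of 8 changes positive. The labels do not say whether any mouse gave both kidneys, so p-values measure the spread between these kidneys.

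Of the 10 members 5 rose in mgb-/- kidneys and none fell. *Zbtb16*, *Cebpd*, *Cebpb*, *Ddit4* and *Sgk1* were between 2.25-fold and 6.18-fold higher than in control kidneys and passed at an adjusted p under 0.05, where 5.22% of all genes passed as higher and 7.9% as lower. Changes of the other 5 were positive as well and did not pass. The median log2 change was 0.98 over the 10 members and 0.0098 over all genes. Tests were limma's, with Benjamini-Hochberg adjustment over all genes. Scaling each array by its median in place of the 75th percentile moved the median change of all genes to -0.15 and the share of calls that were higher from 39.8% to 17.6%, and *Sgk1* then no longer passed. Across all alternative settings 4 to 7 members passed.

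**Figure D1:**
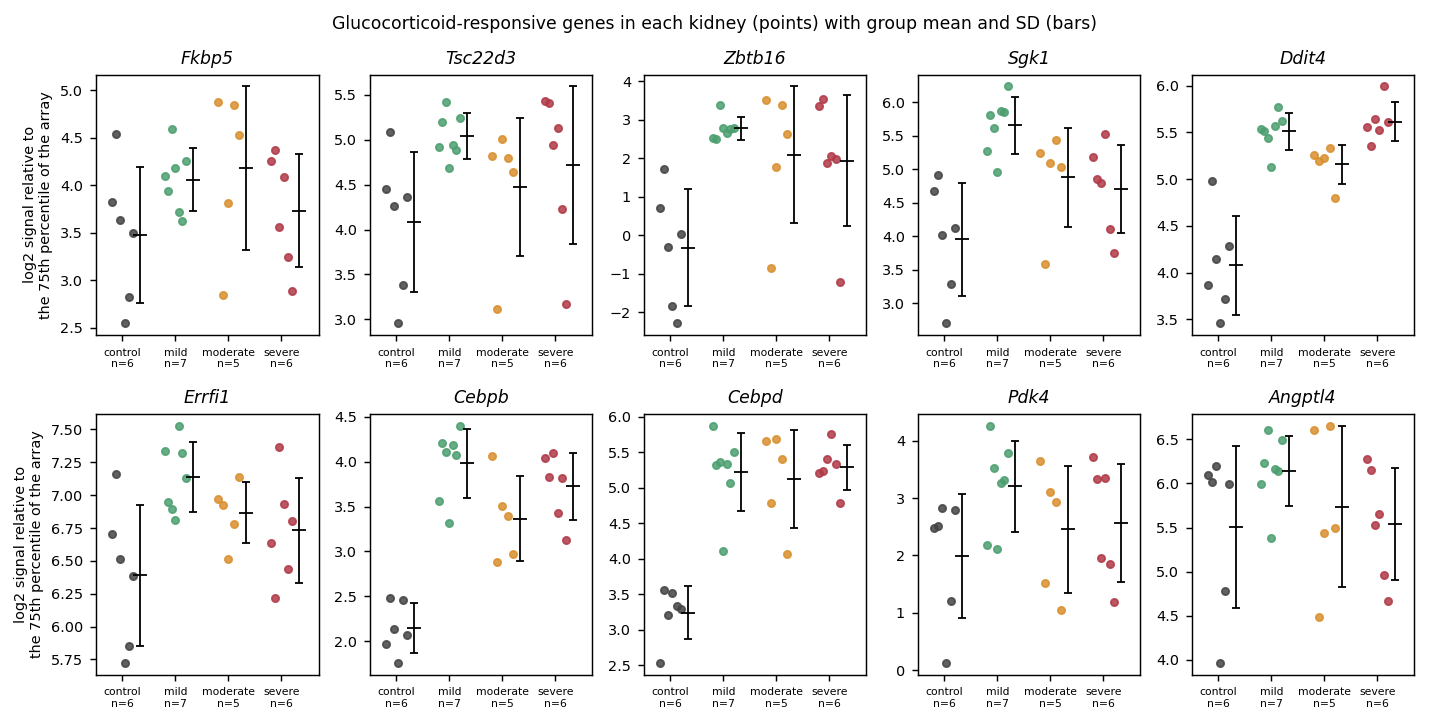
Each point is 1 kidney, the vertical axis is the log2 signal relative to the array's 75th percentile, and bars give the group mean and SD for control (n = 6), mild (n = 7), moderate (n = 5) and severe (n = 6) kidneys. *Cebpb* and *Cebpd* of all 18 mgb-/- kidneys lie above every control, while *Fkbp5*, *Errfi1* and *Angptl4* overlap widely with the controls.

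*Cebpb* and *Cebpd* encode C/EBPβ and C/EBPδ, transcription factors of the acute-phase response and of fat cell differentiation that glucocorticoids and cytokines both induce. *Cebpb* ranged from 1.76 to 2.48 with a median of 2.10 in control kidneys. It ranged from 3.32 to 4.40 with a median of 4.11 in mild kidneys and from 3.13 to 4.10 with a median of 3.83 in severe kidneys. The moderate kidneys stood at 4.07, 2.88, 3.51, 3.40 and 2.98. The lowest mgb-/- kidney was thus above the highest control kidney. The log2 change was 1.58 (SE 0.20, adjusted p = 7.56e-05, limma), or 2.99-fold.

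*Cebpd* ranged from 2.54 to 3.56 with a median of 3.31 in control, from 4.10 to 5.87 with a median of 5.34 in mild and from 4.79 to 5.75 with a median of 5.28 in severe kidneys. The moderate kidneys stood at 5.65, 4.79, 5.69, 5.40 and 4.06. Here too the groups did not overlap, and the log2 change was 1.97 (SE 0.22, adjusted p = 1.99e-05, limma), or 3.93-fold. These were the 2 members whose mgb-/- and control kidneys did not overlap, as was so for 0.833% of all genes. On the 3 slides taken singly, the mgb-/- mean exceeded the control mean by 1.90, 1.22 and 1.61 for *Cebpb* and by 2.27, 1.59 and 2.06 for *Cebpd*.

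*Ddit4*, an inhibitor of mTORC1 that glucocorticoids, hypoxia and energy shortage induce, ranged from 3.46 to 4.98 with a median of 4.01 in control kidneys. In mild kidneys it ranged from 5.13 to 5.77 with a median of 5.54, and in severe kidneys from 5.36 to 5.99 with a median of 5.58. The moderate kidneys stood at 5.25, 5.19, 5.22, 5.33 and 4.80. All but moderate 5 lay above the highest control kidney, control 2. The log2 change was 1.37 (SE 0.16, adjusted p = 4.25e-05, limma), a rise of 2.59-fold, and the SD over mgb-/- kidneys was 0.27 against 0.53 over controls.

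*Zbtb16* encodes PLZF, a zinc finger repressor that is switched on strongly by glucocorticoids in many cell types. It changed most of the members and was also the most variable. Control kidneys ran from -2.28 to 1.73 with a median of -0.13, mild kidneys from 2.51 to 3.38 with a median of 2.76, and severe kidneys from -1.21 to 3.54 with a median of 2.02. Moderate 1 to 5 had 3.51, -0.84, 1.78, 3.38 and 2.63. Of the 18 mgb-/- kidneys 16 lay above every control, and the exceptions, moderate 2 and severe 6, lay within the control range. The log2 change was 2.63 (SE 0.62, adjusted p = 0.00958, limma), or 6.18-fold.

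*Sgk1*, the kinase that keeps the epithelial sodium channel at the cell surface, is a target of both the mineralocorticoid and the glucocorticoid receptor. It is the member whose promoter window holds the full receptor element printed above. Control kidneys ran from 2.70 to 4.92 with a median of 4.07, mild kidneys from 4.95 to 6.23 with a median of 5.80, and severe kidneys from 3.75 to 5.52 with a median of 4.83. Values in moderate 1 to 5 were 5.24, 3.58, 5.09, 5.44 and 5.04. All 7 mild kidneys were above every control, whereas moderate and severe kidneys overlapped with controls. The log2 change over all mgb-/- kidneys was 1.17 (SE 0.34, adjusted p = 0.0267, limma), and it did not pass without control 3, control 4 or control 5, with adjusted p between 0.0581 and 0.0945.

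*Fkbp5* encodes a co-chaperone that lowers the affinity of the receptor for hormone and is induced in turn, a feedback loop that makes it a standard readout of receptor activity. Control kidneys ran from 2.55 to 4.54 with a median of 3.57, mild kidneys from 3.63 to 4.59 with a median of 4.09, and severe kidneys from 2.89 to 4.37 with a median of 3.82. In the 5 moderate kidneys it was 4.87, 2.84, 3.82, 4.85 and 4.52. Only 3 of 18 mgb-/- kidneys were above the highest control, and the log2 change was 0.51 (SE 0.29, 95% interval -0.08 to 1.09, adjusted p = 0.249, limma). On slide 1 the difference in means was 1.25, and on slides 2 and 3 it was -0.04 and 0.31.

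*Tsc22d3* encodes GILZ, a leucine zipper protein through which glucocorticoids restrain NF-κB and AP-1. Control kidneys ran from 2.96 to 5.09 with a median of 4.31, mild kidneys from 4.68 to 5.42 with a median of 4.95, and severe kidneys from 3.17 to 5.43 with a median of 5.03. Moderate 1 to 5 measured 4.82, 3.12, 5.01, 4.80 and 4.64. In 6 mgb-/- kidneys the value exceeded the highest control, and the log2 change was 0.69 (SE 0.32, 95% interval 0.04 to 1.35, adjusted p = 0.146, limma).

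*Errfi1* encodes MIG6, a feedback inhibitor of the EGF receptor. It ranged from 5.73 to 7.16 with a median of 6.45 in control, from 6.81 to 7.53 with a median of 7.13 in mild and from 6.22 to 7.37 with a median of 6.72 in severe kidneys. In moderate 1 to 5 it read 6.97, 6.92, 6.52, 6.78 and 7.14. Although 17 of 18 mgb-/- kidneys were above the control mean, only 4 were above the highest control. The log2 change was 0.54 (SE 0.18, adjusted p = 0.0547, limma).

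*Pdk4* and *Angptl4* belong to fuel use. *Pdk4* phosphorylates pyruvate dehydrogenase and so spares glucose, and *Angptl4* inhibits lipoprotein lipase. *Pdk4* ran from 0.13 to 2.82 with a median of 2.49 in control, from 2.12 to 4.26 with a median of 3.31 in mild and from 1.18 to 3.71 with a median of 2.64 in severe kidneys. Moderate kidneys 1 to 5 gave 3.64, 1.53, 3.11, 2.94 and 1.06. The 95% interval of its log2 change, 0.79 (SE 0.45, adjusted p = 0.257, limma), ran from -0.14 to 1.73, since the groups overlapped. *Angptl4* ran from 3.97 to 6.20 with a median of 6.01 in control, from 5.38 to 6.61 with a median of 6.16 in mild and from 4.67 to 6.28 with a median of 5.59 in severe kidneys. Moderate 1 to 5 had 6.61, 4.48, 5.44, 6.66 and 5.49. It changed least, by 0.32 (SE 0.33, adjusted p = 0.571, limma), with differences of 1.18, 0.08 and -0.30 on the 3 slides.

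By grade, 6 of 10 members rose in mild against control kidneys, 3 in moderate and 3 in severe, and 0 fell. Of all genes 5.93% passed in mild kidneys (2.94% higher, 2.99% lower), 1.19% in moderate (0.637% higher, 0.551% lower) and 15.7% in severe kidneys (6.48% higher, 9.19% lower). The higher calls were 49.6%, 53.6% and 41.4% of the calls in the 3 grades, and 28.5%, 30.5% and 22.7% with scaling by the array median. *Ddit4*, *Cebpb* and *Cebpd* passed in each grade, and *Sgk1*, *Zbtb16* and *Errfi1* passed in mild kidneys. The members' median log2 change was 1.33 for mild, 0.81 for moderate and 0.69 for severe, and these 3 comparisons share their 6 control kidneys. In limma, *Sgk1* changed by 1.70 in mild (SE 0.36, adjusted p = 0.00872), 0.92 in moderate (SE 0.39, adjusted p = 0.212) and 0.75 in severe kidneys (SE 0.37, adjusted p = 0.170). In the same limma fit *Zbtb16* changed by 3.10 (SE 0.74, adjusted p = 0.0176), 2.41 (SE 0.81, adjusted p = 0.122) and 2.26 (SE 0.77, adjusted p = 0.0501), the last of these just short of the threshold. *Angptl4* changed by 0.63, 0.23 and 0.03, and the last value turned to -0.15 with scaling by the array median.

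**Figure D2:**
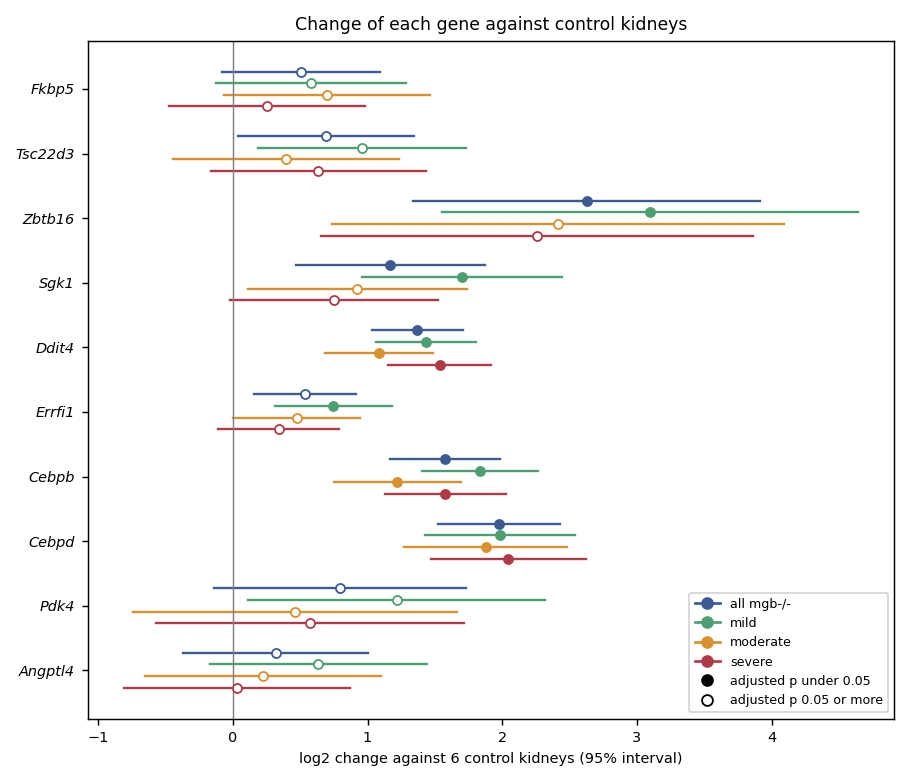
Points are log2 changes against the 6 control kidneys with 95% intervals, for all mgb-/- kidneys and for each grade, and filled points have an adjusted p under 0.05. All points lie at or above 0, and the intervals of *Ddit4*, *Cebpb*, *Cebpd* and *Zbtb16* lie above 0 in every grade.

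No member differed between grades at an adjusted p under 0.05 (limma). Of all genes 0.576% passed between severe and mild kidneys, 0% between moderate and mild and 0.00715% between severe and moderate, with 0.00358% in each direction. At an unadjusted p under 0.05 there was 1 member in each, beside 3022, 1844 and 2857 of the 27958 genes in the same order. In limma the log2 difference of *Sgk1* between severe and mild kidneys was -0.95 (SE 0.36, adjusted p = 0.335), that of *Cebpb* between moderate and mild was -0.62 (SE 0.22, adjusted p = 0.587) and that of *Ddit4* between severe and moderate was 0.45 (SE 0.19, adjusted p = 0.441). None of these held over all genes.

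Without moderate 1, one of the kidneys with adrenal transcripts, only *Cebpd* passed in moderate kidneys. *Ddit4* was then just short of the threshold (adjusted p = 0.0552, limma). *Cebpb* did not pass without moderate 1 or without moderate 4, with adjusted p between 0.0543 and 0.0647 (limma). Leaving out both mild 4 and moderate 1 gave 5 members in mgb-/-, 6 in mild, 1 in moderate and 3 in severe against control kidneys. *Errfi1* no longer passed in mild kidneys in 9 of the 24 fits that left out 1 kidney, those without control 3, 4, 5 or 6 or mild 1, 2, 5, 6 or 7, with adjusted p between 0.0567 and 0.0956 (limma). In bulk kidney RNA, fewer cells of a type and less RNA per cell cannot be told apart. The share of tubule, collecting duct, urothelial, fibroblast and smooth muscle, adipocyte and leukocyte transcripts in these changes was not tested.

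Kidneys differed in how many members they raised. Between 3 and 9 of the 10 members were above every control in each mgb-/- kidney, with 9 in mild 3 and 3 in moderate 2 and in severe 6. No member of any mgb-/- kidney was below the lowest control. The share of all genes outside the control range in each kidney was not computed, so these counts only describe the members. In moderate 2 and severe 6 the members above every control were *Ddit4*, *Cebpb* and *Cebpd*. *Tsc22d3* stood there at 3.12 and 3.17, *Fkbp5* at 2.84 and 2.89, *Sgk1* at 3.58 and 3.75 and *Zbtb16* at -0.84 and -1.21. These values are below the control means of 4.08, 3.48, 3.95 and -0.32.

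**Figure D3:**
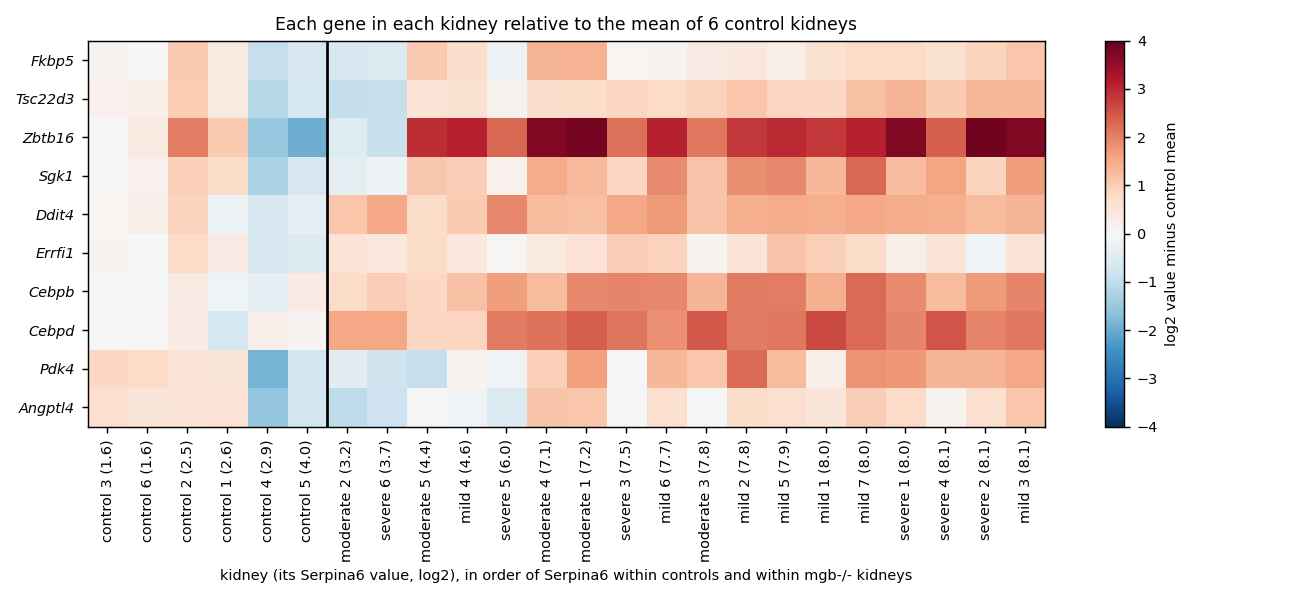
Colour gives the log2 value of each gene minus its mean over the 6 control kidneys; columns are kidneys, controls on the left of the line, ordered by *Serpina6* (value in brackets). Moderate 2 and severe 6, at *Serpina6* values of 3.22 and 3.67, have *Fkbp5*, *Tsc22d3*, *Zbtb16* and *Sgk1* below the control mean and *Ddit4*, *Cebpb* and *Cebpd* above it.

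Control kidneys were split as well. Control 4 and control 5 had the lowest values of *Zbtb16* (-1.83 and -2.28), *Fkbp5* (2.55 and 2.82), *Tsc22d3* (2.96 and 3.38), *Sgk1* (2.70 and 3.28) and *Pdk4* (0.13 and 1.21). The other 4 control kidneys were between -0.31 and 1.73 in *Zbtb16* and between 4.27 and 5.09 in *Tsc22d3*. The SD of *Zbtb16* was 1.52 over controls and 0.29 over mild kidneys. Control 4 lay on slide 1 and control 5 on slide 2, together with control 1 and control 2, so the spread was found within slides.

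*Serpina6*, the gene of corticosteroid-binding globulin, was set beside the members in the same kidney. Its mean was 2.53 ± 0.89 (SD, n = 6) over the controls, and over mgb-/- kidneys it was 6.84 ± 1.68 (SD, n = 18). Of the latter 13 lay between 7.15 and 8.10 and 5 between 3.22 and 5.97. In the same fit the receptor gene *Nr3c1* fell by 0.38 on the log2 scale (SE 0.12, adjusted p = 0.0388, limma) and *Hsd11b1*, which regenerates active hormone, fell by 1.16 (SE 0.26, adjusted p = 0.00705). *Serpina6* was above every control in 16 of the 18 mgb-/- kidneys, while moderate 2 (3.22) and severe 6 (3.67) lay below control 5 (4.00). Because it differs so much by genotype, relations were computed over the mgb-/- kidneys and over the controls apart. Both values come from the same array and share its scaling.

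Over the 18 mgb-/- kidneys 7 of the 10 members rose with *Serpina6* in limma's slope fit, in which 4.22% of all genes passed as rising and 2.61% as falling. All 10 values of Pearson's r were positive, from 0.10 to 0.87. *Tsc22d3* followed it most closely, with r = 0.87 (permutation p = 1e-05, the smallest that 100000 resamples can give) and Spearman's rho = 0.94 (permutation p = 1e-05). Its slope was 0.35 log2 units per log2 unit of *Serpina6* (SE 0.05, adjusted p = 4.6e-04, limma). Without moderate 2 and severe 6, the kidneys farthest from the median, r was 0.71, and over the 13 kidneys of high *Serpina6* it was 0.75. On the 3 slides it was 0.70, 0.86 and 0.98 with 6 kidneys each.

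*Pdk4* had r = 0.81 (permutation p = 1.3e-04) and rho = 0.75 (permutation p = 5.5e-04), with r = 0.74 without the 2 farthest kidneys and 0.20 over the 13. *Cebpd* had r = 0.76 (permutation p = 8.3e-04), rho = 0.50 (permutation p = 0.0357) and 0.83 without the 2 farthest, but -0.05 over the 13. *Cebpb* had r = 0.77 (permutation p = 1.4e-04) and rho = 0.62 (permutation p = 0.0078), and r was 0.63 and 0.15 in these subsets. *Angptl4* had r = 0.78 (permutation p = 3.9e-04) and rho = 0.58 (permutation p = 0.0138), then 0.55 and -0.20. Apart from *Tsc22d3* these relations were much weaker over the 13 kidneys. *Serpina6* spans only 7.15 to 8.10 there, and so narrow a range lowers r by itself. How far the relations rest on the 5 kidneys of low *Serpina6* therefore cannot be told from this subset.

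*Sgk1* had r = 0.76 (permutation p = 7.5e-04) and rho = 0.58 (permutation p = 0.0123), and r was 0.48 without the 2 farthest kidneys and 0.19 over the 13. *Zbtb16* had r = 0.70 (permutation p = 0.00444) and rho = 0.48 (permutation p = 0.0457), and r was 0.11 without the 2 farthest kidneys, so its relation rested on moderate 2 and severe 6. *Fkbp5* did not pass (slope adjusted p = 0.1998, r = 0.48, permutation p = 0.0444, rho = 0.38, permutation p = 0.124) and had r = -0.05 without them. *Ddit4* (r = 0.38, permutation p = 0.125, rho = 0.23, permutation p = 0.361) and *Errfi1* (r = 0.10, permutation p = 0.704, rho = -0.001, permutation p = 1) did not pass either. With moderate 2 left out of the slope fit 3 members passed, *Tsc22d3*, *Pdk4* and *Cebpd*. With severe 6 left out 5 passed, and over the 13 kidneys alone 0 passed (limma).

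**Figure D4:**
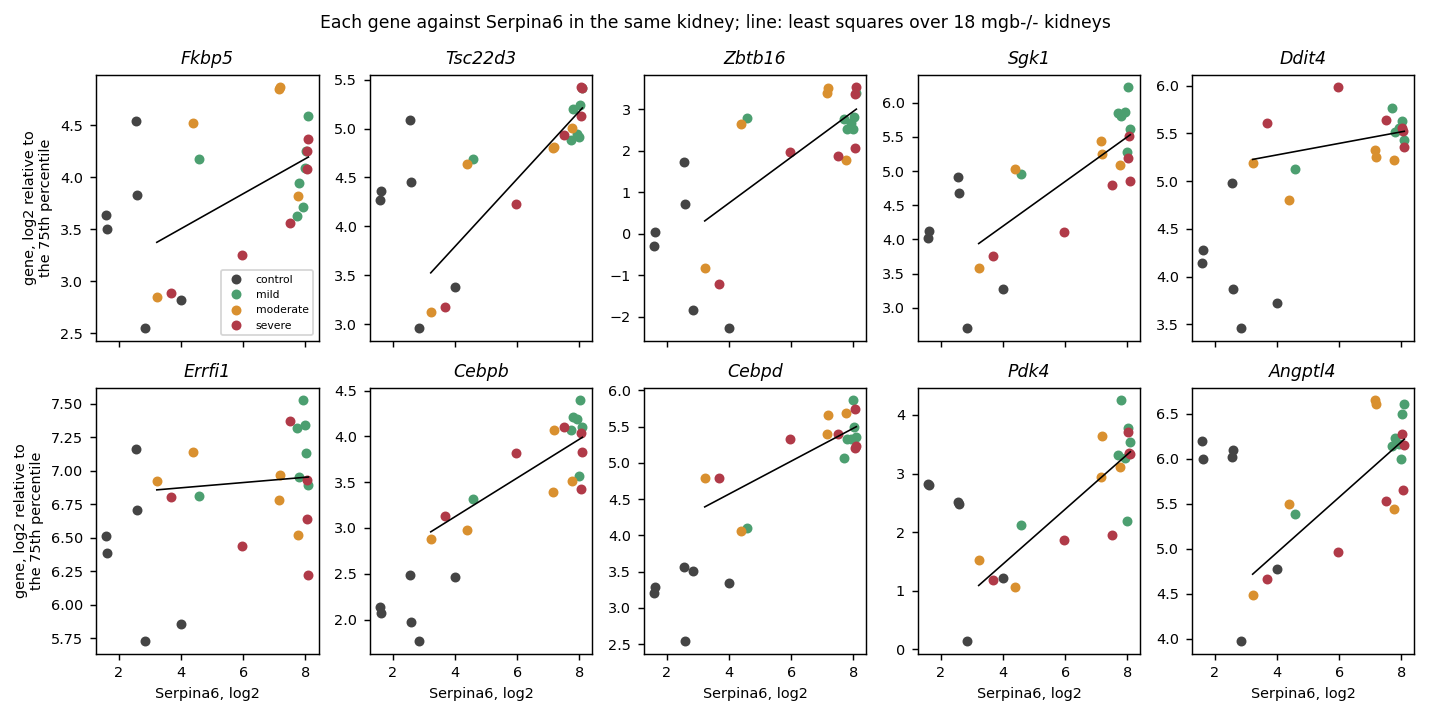
Each panel sets the log2 value of 1 gene (vertical axis) against *Serpina6* of the same kidney (horizontal axis, log2), with points coloured by group and a least-squares line over the 18 mgb-/- kidneys. *Tsc22d3* lies close to its line along the whole range, while *Errfi1* and *Ddit4* have nearly flat lines and the control kidneys follow none of the lines.

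Within the grades of at least 6 kidneys, r of *Tsc22d3* with *Serpina6* was 0.67 in mild (n = 7) and 0.99 in severe kidneys (n = 6), and that of *Zbtb16* was 0.04 and 0.91. *Ddit4* went from 0.81 in mild to -0.44 in severe kidneys. Among mild kidneys *Serpina6* was 4.58 in mild 4, which carried adrenal transcripts, and between 7.71 and 8.10 in the others. Among severe kidneys it was 3.67 in severe 6, 5.97 in severe 5 and between 7.51 and 8.08 in the others. How far r within a grade rests on these low kidneys was not tested. With grade as a term 7 members passed. Among the 6 control kidneys r was negative for 8 of the 10 members, with *Tsc22d3* at -0.52 (exact permutation p = 0.350), *Zbtb16* at -0.54 (exact permutation p = 0.269) and *Pdk4* at -0.67 (exact permutation p = 0.203). Spearman's rho in controls was -0.43 (exact permutation p = 0.419), -0.49 (exact permutation p = 0.356) and -0.94 (exact permutation p = 0.0167). The difference between controls and mgb-/- kidneys in these relations was not tested.

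Several members rose and fell together over the mgb-/- kidneys. Of the 45 pairs 40 had a positive r, with a median of 0.50, and 12 passed in the slope fits of both genes over all genes. Of all genes 4.85% passed in the slope on *Tsc22d3*, 1.57% on *Pdk4*, 1.16% on *Sgk1* and 0.994% on *Cebpb*, and at most 0.604% did on each of the other 6 members. All 12 pairs were positive. Apart from *Cebpb* with *Pdk4*, they lay among *Fkbp5*, *Tsc22d3*, *Zbtb16*, *Sgk1*, *Pdk4* and *Angptl4*. Not every pair among these genes passed. *Fkbp5* did not pass with *Tsc22d3* (r = 0.71, larger adjusted p = 0.128, limma), with *Sgk1* (0.285) or with *Pdk4* (0.565). *Zbtb16* did not pass with *Pdk4* (larger adjusted p = 0.159, limma). The strongest of the 12 was *Tsc22d3* with *Zbtb16* (r = 0.88, permutation p = 5.2e-04, rho = 0.47, permutation p = 0.0498, larger adjusted p = 0.00261). *Fkbp5* with *Zbtb16* had r = 0.85 (permutation p = 1e-05), rho = 0.85 (permutation p = 4e-05) and a larger adjusted p of 0.00824.

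Of the other pairs with *Fkbp5*, that with *Ddit4* had the lowest r of all 45, -0.41 (permutation p = 0.0877, rho = -0.46, permutation p = 0.0575). *Ddit4*, *Cebpd* and *Errfi1* were in none of the 12 pairs. Without *Fkbp5*'s 2 farthest kidneys its r with *Zbtb16* was 0.76, and on the slides it was 0.80, 0.79 and 0.89. Without the 2 kidneys farthest in *Tsc22d3*, its r with *Zbtb16* was 0.40, and on the slides it was 0.20, 0.91 and 0.96. In all, 28 pairs were positive on every slide. With moderate 2 left out 0 pairs passed, and with severe 6 left out 1 passed. These are the 2 farthest kidneys of *Fkbp5*, *Tsc22d3*, *Sgk1* and *Zbtb16*. Without both, r of *Zbtb16* with *Angptl4* was 0.77, from 0.85, and r of *Sgk1* with *Zbtb16* was 0.25, from 0.74.

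**Figure D5:**
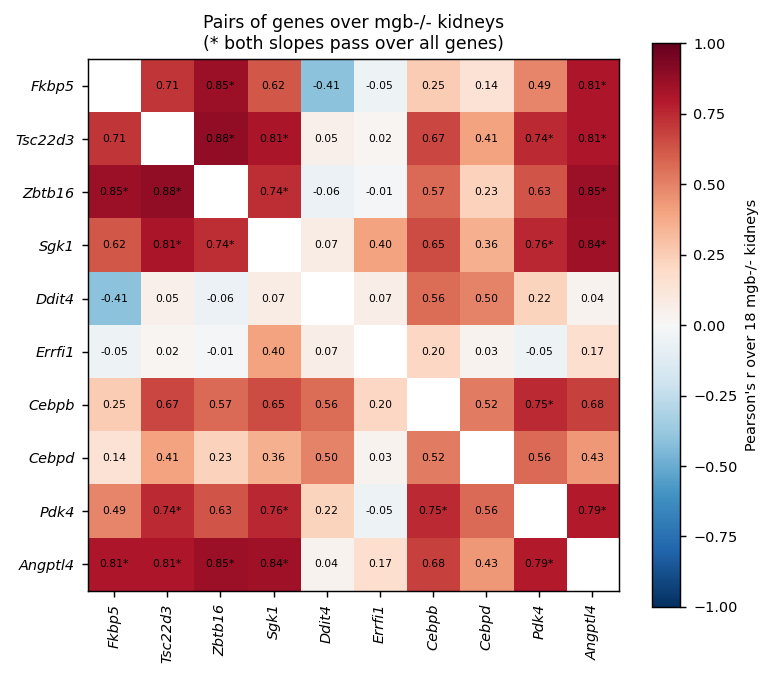
Cells give Pearson's r of each pair of genes over the 18 mgb-/- kidneys, and an asterisk marks the 12 pairs whose slopes pass over all genes in both directions. Apart from *Cebpb* with *Pdk4* (0.75), values of 0.71 or more lie among *Fkbp5*, *Tsc22d3*, *Zbtb16*, *Sgk1*, *Pdk4* and *Angptl4*, while the rows of *Ddit4* and *Errfi1* stay between -0.41 and 0.56.

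The genes most like *Fkbp5* over the 18 mgb-/- kidneys, among 27649 genes with a value in all of them, were *Hif3a* (r = 0.94), *Agt* (r = 0.91), *Fgfbp1* (r = 0.89), *Radx* (r = 0.88) and the transcript BY098376 (r = 0.88). *Hif3a*, a hypoxia-inducible factor subunit, was itself on the list of other glucocorticoid-responsive genes. Those most like *Tsc22d3* were *Slc7a12* (r = 0.95), *Kcnk1* (r = 0.95), the transcripts ENSMUST00000099552 (r = 0.94) and ENSMUST00000128365 (r = 0.93), and *Esrrb* (r = 0.93). They are the highest of many correlations and are given as a description.

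Of 25 further glucocorticoid-responsive genes 11 rose and 0 fell in mgb-/- against control kidneys, and their log2 changes had a median of 0.62. Those with the smallest p were *Dusp1* (1.51, SE 0.19, adjusted p = 7.6e-05, limma), a phosphatase of MAP kinases, *Cdkn1a* (2.12, SE 0.38, adjusted p = 0.00161), a cell cycle inhibitor, *Nfkbia* (1.35, SE 0.24, adjusted p = 0.00184), an inhibitor of NF-κB, and *Zfp36* (1.65, SE 0.32, adjusted p = 0.00319), which speeds mRNA decay. All 4 are also induced by injury and cytokines. With *Serpina6* 9 of the 25 rose over the mgb-/- kidneys and 0 fell. Of these 4, *Cdkn1a* was among them (slope 0.40, adjusted p = 0.0105), and *Dusp1* had a slope of -0.01 (adjusted p = 0.972).

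Of 13 genes of hormone availability and the receptor complex 2 rose and 5 fell. Beside *Serpina6* and *Hsd11b1*, those with the smallest p were the receptor's chaperones *Hsp90aa1* (-0.64, SE 0.10, adjusted p = 9.86e-04, limma) and *Hsp90ab1* (-0.49, SE 0.09, adjusted p = 0.00293). The first was below the control mean in 17 of the 17 mgb-/- kidneys with a value, and the second in 18 of 18. Of 11 genes of sodium and potassium transport downstream of *Sgk1* and the mineralocorticoid receptor 1 rose, *Stk39* (0.58, SE 0.15, adjusted p = 0.0164), a kinase that activates the sodium chloride cotransporter. With *Serpina6* 4 of the 11 rose, among them *Scnn1a* (slope 0.20, adjusted p = 0.0150) and *Scnn1b* (slope 0.14, adjusted p = 0.0387), subunits of the epithelial sodium channel, which were named after their values were seen.

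Of 14 PPAR and fasting genes, the group to which *Pdk4* and *Angptl4* also belong, none fell in mgb-/- against control kidneys, and their log2 changes had a median of -0.11. In severe against control kidneys 0 of the 14 rose and 4 fell (limma). Of 16 hypoxia and stress genes, which answer to some of the signals that induce *Ddit4*, 2 rose and 1 fell. *Slc2a1*, a glucose transporter, changed by 0.55 (SE 0.15, adjusted p = 0.0217, limma), *Adm*, a vasodilator peptide, by 0.57 (SE 0.17, adjusted p = 0.0343) and *Car9*, a carbonic anhydrase, by -0.90 (SE 0.20, adjusted p = 0.00669).

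Of 17 acute-phase and C/EBP-related genes 5 rose and 1 fell, with a median of 1.44. *Cxcl1*, a neutrophil chemokine, changed by 3.31 (SE 0.60, adjusted p = 0.00197, limma), *Stat3* by 0.90 (SE 0.20, adjusted p = 0.00606), *Osmr*, a cytokine receptor, by 1.08 (SE 0.31, adjusted p = 0.0267) and *Cebpg*, a further C/EBP family member, by -0.50 (SE 0.13, adjusted p = 0.0130). Of 15 immediate early genes 14 rose and 0 fell, with a median of 2.06. *Egr2* changed by 4.15 (SE 0.41, adjusted p = 3e-06), *Egr1* by 3.64 (SE 0.44, adjusted p = 6e-05), *Nr4a1* by 3.20 (SE 0.41, adjusted p = 1.02e-04) and *Btg2* by 2.20 (SE 0.26, adjusted p = 3.7e-05). None of the 15 passed in the slope on *Serpina6* (limma), and 3 had an unadjusted p under 0.05, as did 5923 of all 27957 genes in that fit.

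Of 13 genes of the EGF receptor system, in which *Errfi1* acts, 4 rose and 0 fell. They were *Areg* (2.39, SE 0.56, adjusted p = 0.00902, limma) and *Hbegf* (0.70, SE 0.24, adjusted p = 0.0497), both ligands, *Spry2* (0.56, SE 0.14, adjusted p = 0.0116), a feedback inhibitor, and *Erbb2* (0.28, SE 0.09, adjusted p = 0.0465), a receptor. *Areg* was well above background on 0 of 6 control and 6 of 18 mgb-/- arrays. It entered the tests through mgb-/- arrays alone, and its change is measured from the background level.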

How the data were processed

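RNA of 24 whole kidneys was read on 1-colour Agilent 8x60K mouse arrays, 1 kidney an array. The deposited scanner intensities carry the background subtraction and spatial detrending of Agilent Feature Extraction 10.10 (submitters' processing notes), and they were not normalized between arrays. The authors' value table also holds intensities, which they filtered for outliers and normalized by a method not given in the sources used here; its scale is linear and it served as an alternative. The array annotation names mm9, so no probe coordinates are given.

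From the processed signal, outlier spots and control spots were left out, spots of a probe were averaged, and log2 values were taken relative to the array's 75th percentile. Of 55681 probes 26762 were named through their accession (RefSeq, GRCm38.p6) and 28919 kept it as a name. Those that the scanner software called well above background on 5 or more arrays, 38834 in all, entered the tests, and the brightest probe stood for its gene. Groups were compared with limma 3.58.1 (lmFit and eBayes, R 4.3.3), grades in 1 fit of 4 groups and all mgb-/- kidneys in a fit of 2. Benjamini-Hochberg adjustment ran over all genes, and a gene passed at an adjusted p under 0.05. The fit was tested on simulated data. Relations used the 18 mgb-/- kidneys: limma slopes, and Pearson's r and Spearman's rho with two-sided permutation p (100000 resamples; in the 6 controls exact, where the smallest possible p is 0.002778), for 10 relations with *Serpina6* and 45 pairs. Their correction over tests is that of the limma slopes. Calculations used Python 3.11.15, numpy 2.4.6, scipy 1.17.1 and pandas 2.3.3.

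The members and gene lists were chosen with earlier results of these data known. From each list up to 4 genes are named, those with the smallest p among those that passed in mgb-/- against control kidneys, or the largest changes where none passed. For *Fkbp5* and *Tsc22d3* the 5 genes most like each are named. *Nr3c1*, *Scnn1a*, *Scnn1b*, *Per1* and the clock genes named for their slopes were chosen after their values were seen. Alternatives were the scaling, background correction (normexp with an offset of 50 on the median signal), value table, probe filter and summary, slide and replicate number as blocks, array weights, thresholds and leaving out kidneys. A gene that the naming rule would take is not reported here.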

Additional observations from a re-analysis of the deposited data

Results flagged for a closer look

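In 44 sets of values, 1 gene in 1 group, 7 had a kidney that stood far from the others by Dixon's test, where chance gives about 1 in 20. Of these, 3 were in moderate 2 and severe 6. *Tsc22d3* (3.12, nearest 4.64) and *Sgk1* (3.58, nearest 5.04) were low in moderate 2, and *Zbtb16* (-1.21, nearest 1.88) was low in severe 6. *Ddit4* was low in moderate 5 (4.80, nearest 5.19), *Cebpd* was low in control 1 (2.54, nearest 3.21), *Zbtb16* was high in mild 3 (3.38, nearest 2.80) and *Serpina6* was low in mild 4 (4.58, nearest 7.71). All these kidneys are part of the tests reported.

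Markers of the adrenal gland, a tissue outside the labels, summed to 225.5 in mild 4 and 225.9 in moderate 1 on the linear scale where 1 is the 75th percentile of an array, against at most 1.126 in control kidneys. Their part in the values of the glucocorticoid-responsive genes was not tested, and the counts without both kidneys are given with the results.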

How the results depend on the processing

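Between severe and mild kidneys 0 members passed under each of 38 alternatives, and no member passed as lower in any comparison under any of them. The counts against control kidneys in all mgb-/- and in severe kidneys stayed within 1.5 times the reported ones, at 4 to 7 and 3 to 4. With scaling by the array median 1 member passed in moderate kidneys, and the change of *Angptl4* in severe kidneys was -0.15. Without mild 4 and moderate 1, left out after seeing the data, 1 member passed in moderate kidneys, and *Cebpd* differed by -0.13 between severe and mild kidneys. Without the 5 kidneys lowest in *Serpina6*, also chosen after seeing the data, 0 members passed in the slope on *Serpina6* and 0 pairs passed. With slide as a block 5 pairs passed. The cause was not tested in any of these.

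The labels do not say what the replicate numbers stand for. In control, mild and moderate kidneys the same number lay on the same slide, which was not so for severe kidneys. Same-numbered kidneys of different groups had a median correlation of 0.0048 over 33 pairs (-0.55 to 0.65), against 0.0036 over 182 pairs of other numbers. Of 24 kidneys 6 correlated best with their own number. With the replicate block 4 members passed for mgb-/-, 3 for mild, 1 for moderate and 3 for severe kidneys, 2 in the slope on *Serpina6*, and 0 pairs.

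Leaving out each kidney in turn gave 4 to 6 members for mgb-/-, 5 to 6 for mild, 1 to 4 for moderate and 3 to 4 for severe against control kidneys, 3 to 7 in the slope on *Serpina6* (3 without moderate 2) and 0 to 14 pairs (0 without moderate 2). In moderate kidneys 1 passed without moderate 1 and 4 without moderate 2. *Angptl4* then ranged from -0.0824 to 0.54 in moderate kidneys (below 0 without control 4 or moderate 4) and from -0.28 to 0.21 in severe kidneys (below 0 without control 4, control 5, severe 1 or severe 2). *Cebpd* ranged from -0.13 to 0.17 between severe and mild kidneys (below 0 without mild 4 or severe 4). None of these values passed.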

Other observations

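Of 14 clock genes 0 passed in mgb-/- against control kidneys (limma), and 3 had an unadjusted p under 0.05, as did 8069 of all 27958 genes. The largest changes were *Dbp* (-0.85, SE 0.32, adjusted p = 0.0767), *Bhlhe40* (0.69), *Npas2* (0.49) and *Cry1* (0.47). In the slope on *Serpina6* over the 18 mgb-/- kidneys 2 of the 14 rose and 2 fell. *Per2* (slope 0.33, adjusted p = 0.0280, limma) and *Per3* (slope 0.24, adjusted p = 0.0257, limma), repressors of the clock, rose with *Serpina6*. *Arntl* (slope -0.42, adjusted p = 0.0120, limma) and *Clock* (slope -0.09, adjusted p = 0.0451, limma), its activators, fell with it. *Per1*, which was on the list of other glucocorticoid-responsive genes, had a slope of 0.39 (adjusted p = 0.00194, limma). The hour at which each kidney was taken is not given in the sources used here, and its part in these values was not tested.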
